A study of Mus musculus with 8 samples.

Results

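A set of 10 genes of bone morphogenetic protein (BMP) signalling was followed in the ascending aorta: the receptor genes Bmpr1b, Bmpr1a, Bmpr2, Acvrl1 and Acvr1, the ligand genes Bmp2, Bmp4 and Bmp6, and the target genes Id1 and Id3. They were chosen by symbol, as the transcript clusters (the array's unit for 1 transcribed locus) that carry exactly 1 gene symbol in the platform annotation, with the brightest cluster by mean over all arrays standing for a gene with several. Each of the 10 genes had 1 such cluster, so brightness decided nothing, and the 10 stand among 65956 clusters and 30142 genes with a single-symbol cluster. RNA came from 4 male Fbn1mgR/mgR mouse samples (arrays mgR611, mgR612, mgR613 and mgR614) and 4 male wild-type samples (arrays WT675, WT676, WT742 and WT744), all 10 weeks old and on a C57BL/6J background, from crosses of Fbn1mgR/+ mice. Fbn1 encodes fibrillin-1 of the extracellular microfibrils, and mgR is a hypomorphic germline allele used as a model of severe Marfan syndrome with aortic aneurysm, so every cell type of the wall carries it. Whether each sample is a different animal is not stated in the labels; the p-values speak for the variation among these 8 samples, part or all of which may be technical.

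BMP ligands are secreted dimers that assemble type I receptor kinases, encoded here by Acvrl1, Acvr1, Bmpr1a and Bmpr1b, with type II receptor kinases such as the product of Bmpr2. The type I receptors phosphorylate Smad1, Smad5 and Smad9, which enter the nucleus with Smad4 and induce the Id genes, inhibitors of basic helix-loop-helix transcription factors. Fibrillin microfibrils bind the prodomains of several BMPs, and in vessels the pathway is best known from the endothelium, where ACVRL1, BMPR2 and endoglin respond to circulating ligands.

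Values are log2 signals as deposited, so a difference of 1 is a 2-fold change, and differences are Fbn1mgR/mgR minus wild-type. Array medians were 3.95 to 4.07, and Pearson correlations across clusters were 0.989 to 0.993 within Fbn1mgR/mgR, 0.989 to 0.992 within wild-type and 0.985 to 0.990 between genotypes. Smooth muscle markers of the aortic wall were high on all arrays, with Acta2 at 19.14 to 19.49 in Fbn1mgR/mgR and 19.49 to 19.57 in wild-type. No check of the genotype labels was made through Fbn1 itself, which was not analysed here. A pair of arrays stood apart in brown fat markers, mgR614 with a list mean of 9.33, against 6.85 to 6.89 on the other mutant arrays, and WT676 with 9.63, against 6.25 to 7.71 on the other wild-type arrays. Calls were made with limma across the 32957 clusters above the median mean signal of 4.01, at a Benjamini-Hochberg adjusted p under 0.05. Each limma adjusted p below is over all clusters tested in its fit, which are these 32957 unless an alternative fit changed them. Adjusted p-values of permutation tests are over the pairs compared.

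Of the 9 members tested, both BMP type IA and IB receptor genes fell in the mutant aorta, none rose, and 7 passed no threshold; across all clusters tested, 0.464% were lower and 1.40% higher, 1.86% in either direction. Before adjustment, p in limma was under 0.05 for 2 lower members and 1 higher member, against 6.68% lower and 7.59% higher of all clusters tested. The median difference over all 10 members was -0.10, against -0.01 over all 65956 clusters. Genotypes did not overlap in 2 of the 9 members tested, the same pair, against 8.92% of all clusters tested. The members were listed with earlier results of these data in view, so these counts describe them and nothing is read from their excess over the background.

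Bmpr1b, the BMP type IB receptor gene, had signals of 6.07, 5.77, 5.91 and 5.61 on the Fbn1mgR/mgR arrays mgR611 to mgR614. On the wild-type arrays it had 7.69, 7.71, 7.76 and 7.92. Every mutant array lay well below every wild-type array, and the gap between the nearest arrays exceeded the range within either genotype. The means were 5.84 ± 0.196 in Fbn1mgR/mgR and 7.77 ± 0.104 in wild-type (SD, n = 4 each), a log2 difference of -1.93 (SE 0.126, limma adjusted p = 0.000875). On the linear scale the mutant level was 26.2% of wild-type. By p value the gene ranked 5 among the 32957 clusters tested, and 28 called clusters had a larger fall.

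Bmpr1a, the BMP type IA receptor gene, had signals of 9.39, 9.44, 9.51 and 9.12 on the Fbn1mgR/mgR arrays mgR611 to mgR614. Its wild-type signals were 10.26, 10.32, 10.16 and 10.38. The genotypes did not overlap. The lowest value was that of mgR614, the mutant array high in brown fat markers, which was also lowest in Bmpr1b (5.61). WT676, the wild-type array high in those markers, had 10.32, inside the wild-type range of 10.16 to 10.38. The means were 9.37 ± 0.171 in Fbn1mgR/mgR and 10.28 ± 0.0938 in wild-type (SD, n = 4 each), a log2 difference of -0.92 (SE 0.126, limma adjusted p = 0.0101), with the mutant at 53.0% of wild-type. Leaving out both mgR614 and WT676, the arrays high in brown fat markers, the difference was -0.82 and the call was lost (limma adjusted p = 0.0691). Bmpr1b kept its call in that fit (-1.87, limma adjusted p = 0.0145).

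The fall of Bmpr1b was larger than that of Bmpr1a on the same arrays. The within-array difference Bmpr1b minus Bmpr1a was -3.32, -3.67, -3.60 and -3.51 in Fbn1mgR/mgR and -2.57, -2.61, -2.40 and -2.46 in wild-type. The genotype means of this difference differed by -1.02 log2 units, with no overlap (p = 0.0286 by an exact permutation test, two-sided, where no smaller value is possible over 70 labellings; 0.0429 after adjustment over the 3 member pairs compared, which were picked after their values were seen).

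**Figure D1:**
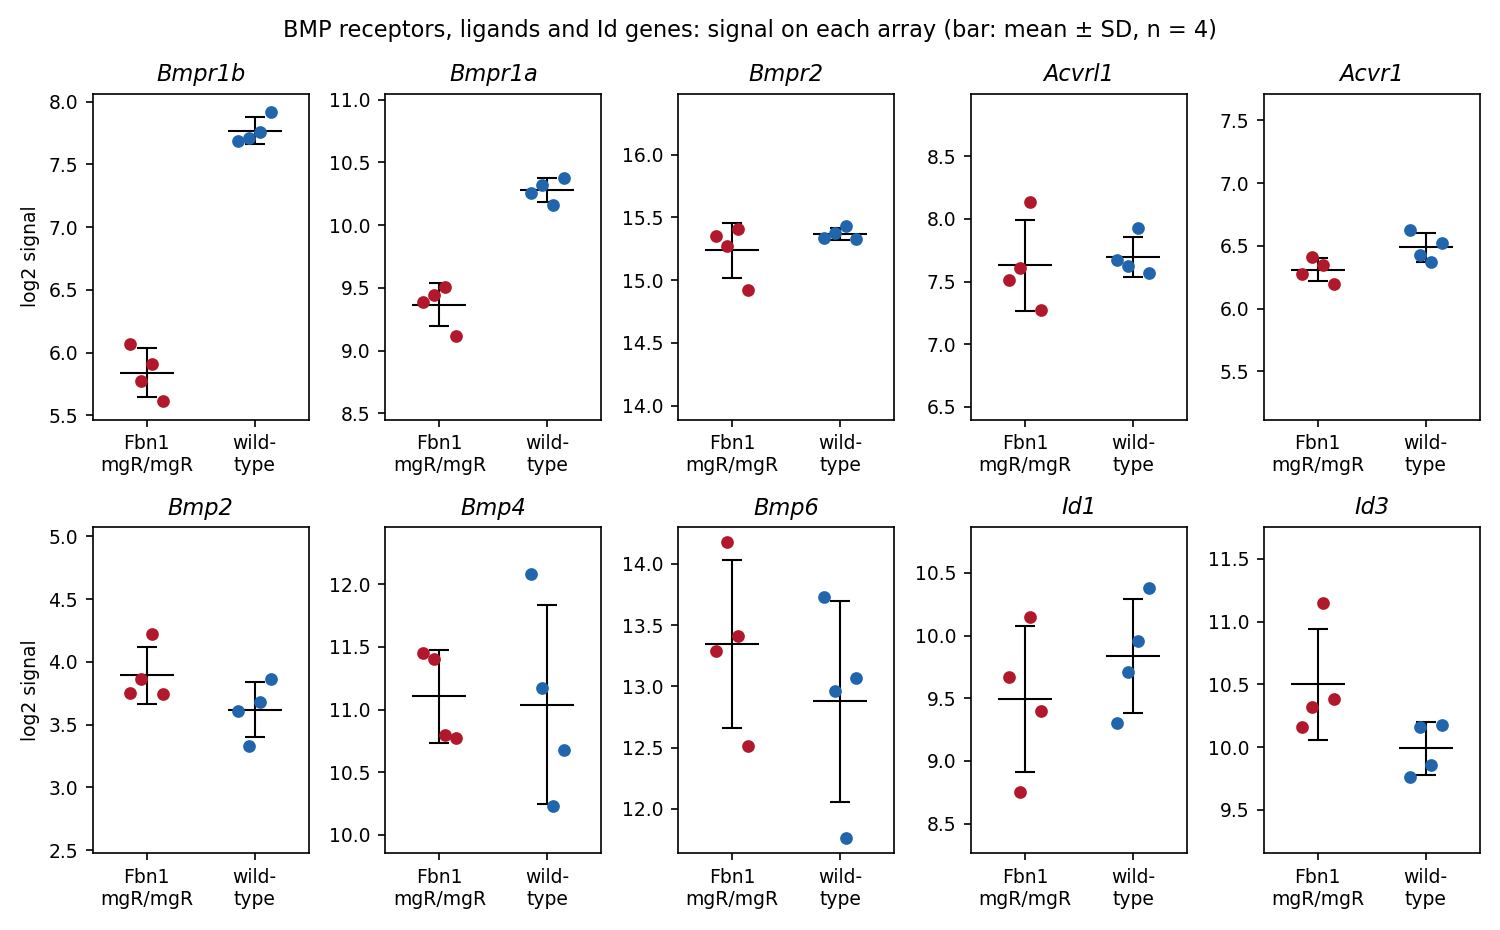
Log2 signal (vertical axis, each panel spanning its own range) of the 10 members on the 4 Fbn1mgR/mgR arrays (red, left) and the 4 wild-type arrays (blue, right); black bars are the mean ± SD. Bmpr1b sits at 5.61 to 6.07 in Fbn1mgR/mgR and 7.69 to 7.92 in wild-type, Bmpr1a is split likewise, and the genotypes overlap in the other 8 panels.

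Because these receptor genes fell together, the sequences before their transcription starts are shown, from RefSeq on GRCm38.p6; 7 of the 10 members had an entry, Bmpr1b with several starts. Each is given 5′ to 3′ on the gene's own strand, the minus strand in all cases, as the 250 bases before the start. Capitals mark GGCGCC, which is its own reverse complement, and GGAGCC, on either strand, GC-rich letters of the kind that BMP Smads bind; these motifs do not overlap each other in the windows shown.
Bmpr1a, chr14:34502547-34502796: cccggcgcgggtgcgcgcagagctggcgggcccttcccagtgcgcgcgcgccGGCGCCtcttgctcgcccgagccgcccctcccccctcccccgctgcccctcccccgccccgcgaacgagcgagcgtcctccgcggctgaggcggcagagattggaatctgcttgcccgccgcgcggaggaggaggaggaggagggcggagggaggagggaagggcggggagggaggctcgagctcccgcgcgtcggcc
Bmpr1b, first start, chr3:141982265-141982514: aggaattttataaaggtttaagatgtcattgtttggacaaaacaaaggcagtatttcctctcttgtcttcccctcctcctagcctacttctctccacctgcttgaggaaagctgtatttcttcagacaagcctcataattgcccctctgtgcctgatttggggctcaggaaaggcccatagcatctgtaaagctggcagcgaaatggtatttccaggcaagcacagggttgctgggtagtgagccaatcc
Bmpr1b, second start, chr3:141931589-141931838: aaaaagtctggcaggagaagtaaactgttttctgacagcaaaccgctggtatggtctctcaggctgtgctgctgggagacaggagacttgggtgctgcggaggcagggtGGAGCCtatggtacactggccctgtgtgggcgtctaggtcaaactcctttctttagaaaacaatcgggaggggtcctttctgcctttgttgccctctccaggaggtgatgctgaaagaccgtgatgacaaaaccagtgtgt
The Bmpr1a window has a GC content of 78.8% and holds 1 GGCGCC, which begins at position -198 from the start. The Bmpr1b windows printed have 46.8% and 52.8% GC; the first holds neither motif and the second holds 1 GGAGCC, at position -141. The window of another Bmpr1b start, which overlaps the second and is not printed, has 56.4% GC and holds 1 further GGAGCC, at position -43. Motifs were searched, in the members and in all promoters alike, over the 300 bases from 250 before to 50 after the start, and all matches in the members lie before it; 11.9% of all 32851 promoters hold GGCGCC and 30.9% hold GGAGCC. Among the other members, Bmpr2 holds 1 GGCGCC, Acvr1 holds 2 GGAGCC, Bmp4 and Id3 hold 1 GGAGCC each, and Bmp6 holds neither.

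The other 3 receptor genes passed no threshold. Bmpr2, the type II receptor gene whose human counterpart is mutated in heritable pulmonary arterial hypertension, had 15.35, 15.27, 15.41 and 14.92 in Fbn1mgR/mgR and 15.34, 15.38, 15.43 and 15.33 in wild-type. All arrays but mgR614 lay within a narrow band, and the difference was -0.13 (SE 0.113, 95% interval -0.39 to 0.12, limma adjusted p = 0.680). Acvr1, a type I receptor gene whose activating mutations cause fibrodysplasia ossificans progressiva in humans, had 6.28, 6.41, 6.35 and 6.2 in Fbn1mgR/mgR and 6.63, 6.43, 6.37 and 6.52 in wild-type. Its genotypes overlapped, with a difference of -0.18 (SE 0.102, 95% interval -0.41 to 0.06, limma adjusted p = 0.499).

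Acvrl1, the endothelial type I receptor gene, had 7.51, 7.61, 8.13 and 7.27 in Fbn1mgR/mgR and 7.67, 7.62, 7.93 and 7.57 in wild-type. Both the highest and the lowest of its 8 values were mutant arrays, mgR613 and mgR614, and the difference was -0.07 (SE 0.188, 95% interval -0.50 to 0.36, limma adjusted p = 0.925). Its sign turned without mgR614 (0.05) or WT742 (0.01), with the endothelial marker mean as a covariate (0.15) and without mgR614 and WT676 together (0.03). The intervals of Bmpr2, Acvr1 and Acvrl1 all exclude a fall as large as that of Bmpr1a.

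Among the ligands, none passed the threshold. Bmp4 had 11.45, 11.40, 10.80 and 10.77 in Fbn1mgR/mgR and 12.08, 11.17, 10.23 and 10.68 in wild-type. Wild-type arrays held both the highest value (WT675) and the lowest (WT742), and all mutant values lay between them. The difference was 0.07 (SE 0.375, 95% interval -0.79 to 0.92, limma adjusted p = 0.968), and it was between -0.20 and 0.41 with 1 array left out.

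Bmp6, whose product from the liver endothelium drives hepcidin expression, had 13.29, 14.18, 13.41 and 12.51 in Fbn1mgR/mgR and 13.73, 12.96, 11.76 and 13.07 in wild-type. Its highest value was on mgR612 and its lowest on WT742, and the difference was 0.47 (SE 0.45, 95% interval -0.56 to 1.49, limma adjusted p = 0.726). Without WT742 the difference was 0.09. The mean of 8 mesothelial markers was 9.86 on WT742, against 10.83 to 11.63 on the other wild-type arrays. In Fbn1mgR/mgR it was 9.85 to 11.07, lowest on mgR613, where Bmp6 was 13.41 and Bmp4 was 10.80. The part of mesothelial cells in the Bmp4 and Bmp6 values was not tested. The intervals of both ligand genes were wider than that of any receptor gene above.

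Bmp2, a ligand gene linked to vascular calcification, was dim, at 3.75, 3.86, 4.22 and 3.74 in Fbn1mgR/mgR and 3.61, 3.33, 3.68 and 3.86 in wild-type. The olfactory receptor clusters, taken as dim signals, had a 95th percentile of 4.12 for their mean signal, which Bmp2 exceeded on mgR613 alone. The gene lay under the filter and was not tested; its means differed by 0.27 with overlapping genotypes.

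The target genes pointed in opposite directions and neither passed the threshold. Id1 had 9.67, 8.75, 10.15 and 9.40 in Fbn1mgR/mgR and 9.30, 9.71, 9.96 and 10.38 in wild-type, which overlap, with a difference of -0.35 (SE 0.321, 95% interval -1.08 to 0.39, limma adjusted p = 0.712). Id3 had 10.16, 10.32, 11.15 and 10.38 in Fbn1mgR/mgR and 9.76, 10.16, 9.86 and 10.18 in wild-type. Its overlap was slight, mgR611 equalling WT676 and lying just below WT744, and mgR613 stood well above the rest. The Id3 difference was 0.51 (SE 0.225, 95% interval 0.00 to 1.02, limma adjusted p = 0.348) and 0.30 without mgR613.

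Measured within each array, Id3 minus Id1 was 0.49, 1.57, 1.0 and 0.98 in Fbn1mgR/mgR and 0.46, 0.45, -0.10 and -0.20 in wild-type. The means were 1.01 ± 0.442 in Fbn1mgR/mgR and 0.15 ± 0.352 in wild-type (SD, n = 4 each), 0.86 apart (p = 0.0286 by the same exact permutation test; adjusted p = 0.0429 over 3 pairs). The lowest mutant and the highest wild-type value, on mgR611 and WT675, were nearly equal, so the genotypes were separated but not widely. The ligand pair Bmp6 minus Bmp4 overlapped between genotypes, with a difference of 0.40 (exact permutation p = 0.2, adjusted p = 0.2). All 3 pairs were picked after their values were seen, so the permutation p-values are descriptive only. Such differences within an array compare the genes of a pair and do not tell which of them changed.

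**Figure D2:**
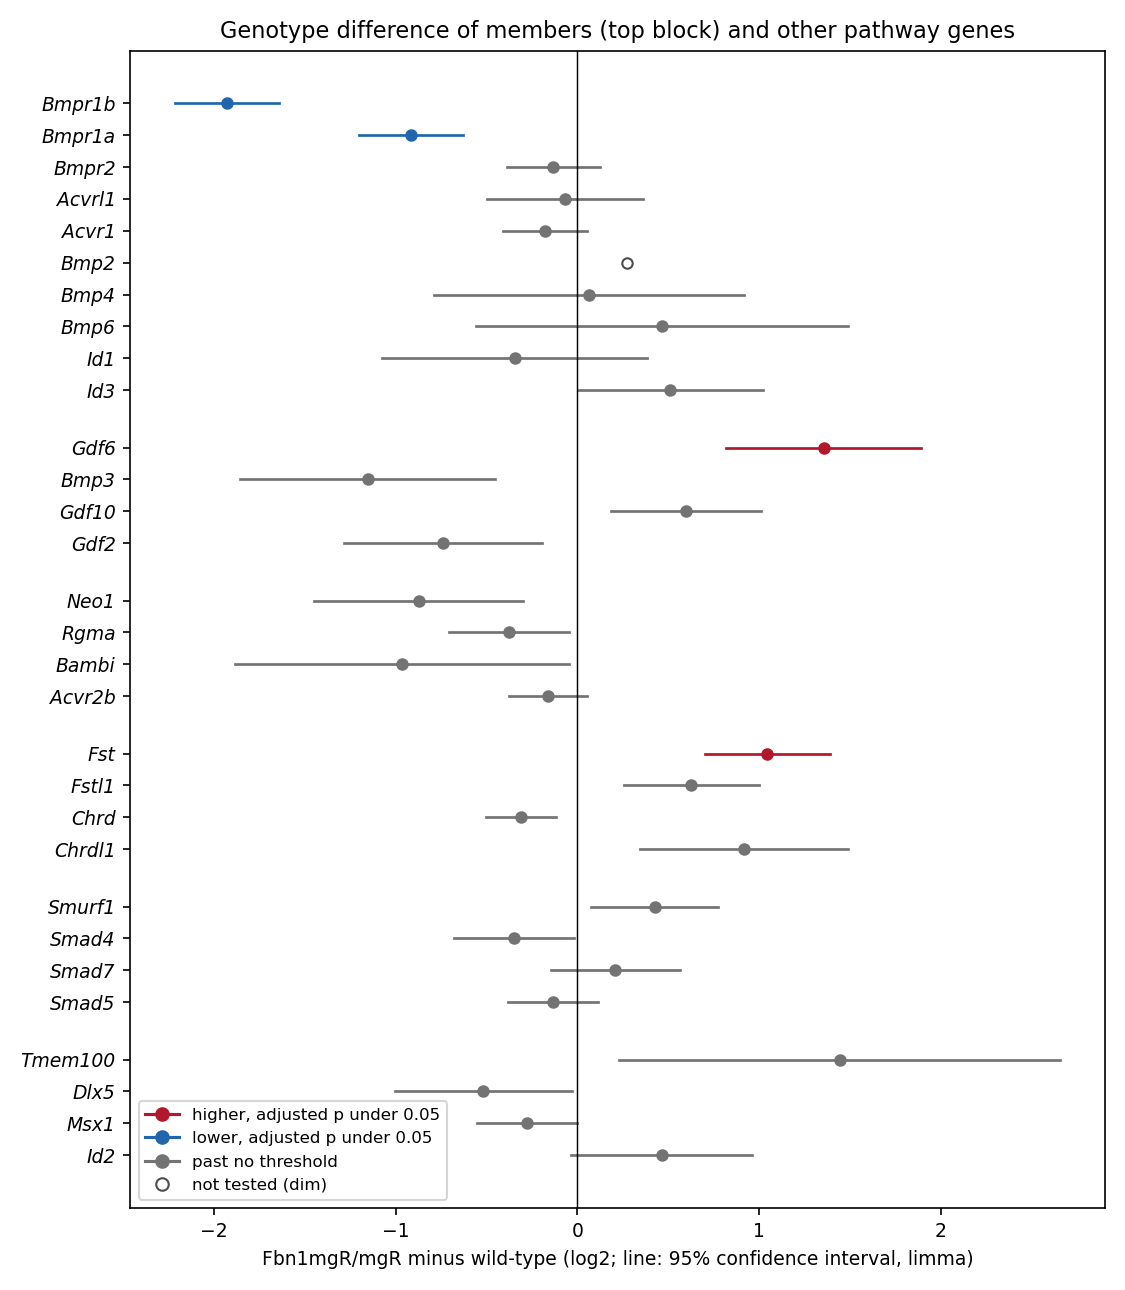
Fbn1mgR/mgR minus wild-type in log2 units (horizontal axis) with 95% confidence intervals from limma, for the 10 members in the top block and, in the blocks below, the 4 genes with the smallest p in each of 5 other groups (ligands, receptors and co-receptors, antagonists, Smads and Smurfs, targets). Bmpr1b (-1.93) and Bmpr1a (-0.92) are lower, Gdf6 (1.36) and Fst (1.05) are higher, the rest pass no threshold, and Bmp2, open circle, was not tested.

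Beyond the members, 54 of 56 other genes of the pathway were analysed, 41 of them bright enough to be tested: 2 rose and none fell past the threshold. Without adjustment, limma gave p under 0.05 for 7 higher and 9 lower genes. Of all clusters tested, 1.40% were called higher and 0.464% lower, and 7.59% were higher and 6.68% lower before adjustment. The median difference was 0.02 over the 54, close to the -0.01 of all clusters.

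Gdf6, which encodes a BMP-type ligand of the growth and differentiation factor group, had 7.49, 7.72, 6.57 and 7.45 in Fbn1mgR/mgR and 5.76, 6.13, 5.91 and 6.01 in wild-type. All mutant arrays exceeded all wild-type arrays, with mgR613 nearest to them. The difference was 1.36 (SE 0.235, limma adjusted p = 0.0275), or 2.56-fold. The call was lost on leaving out any 1 array except mgR613, at limma adjusted p from 0.0599 to 0.0858, while the difference kept to 1.22 to 1.60 over all 8 omissions. It was also lost with the endothelial marker mean as a covariate (1.11, limma adjusted p = 0.0994) and without mgR614 and WT676 (1.37, limma adjusted p = 0.156).

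Fst encodes follistatin, a secreted protein that binds activins and, less tightly, BMPs. Its signals were 8.59, 8.27, 8.20 and 8.57 in Fbn1mgR/mgR and 7.13, 7.5, 7.25 and 7.57 in wild-type. The genotypes did not overlap, and the difference was 1.05 (SE 0.152, limma adjusted p = 0.0129), or 2.06-fold. The call held on leaving out each array in turn (limma adjusted p from 0.0272 to 0.0429) and was lost without mgR614 and WT676 together (1.04, limma adjusted p = 0.0883).

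Of 13 other ligand genes, 6 were tested. Bmp3, which encodes an atypical BMP that counters osteogenic signalling, had 4.88 to 6.08 in Fbn1mgR/mgR and 6.19 to 7.10 in wild-type, without overlap; its difference of -1.15 did not pass (limma adjusted p = 0.122). Gdf10 had a difference of 0.60 (limma adjusted p = 0.172). Gdf2, which encodes the circulating ligand of ACVRL1 made mainly in the liver, had a difference of -0.74 (limma adjusted p = 0.203). The 7 ligand genes not tested had mean signals under the filter.

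Of the 9 other receptor and co-receptor genes, 8 were tested and 0 passed the threshold in limma, with 3 lower at an unadjusted p under 0.05, which 6.68% of all clusters tested also met. Those were Neo1, a receptor of repulsive guidance molecules (-0.87, limma adjusted p = 0.153), the BMP co-receptor gene Rgma (-0.38, limma adjusted p = 0.283) and the pseudoreceptor gene Bambi (-0.97, limma adjusted p = 0.322). Bambi ranged from 7.59 to 9.68 in wild-type alone. Acvr2b, an activin type II receptor gene, had a difference of -0.16 (limma adjusted p = 0.50), and Eng, which encodes endoglin, had 0.18 (limma adjusted p = 0.787).

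Of 15 antagonist and modulator genes analysed, 11 were tested and Fst alone passed, against 1.40% called higher and 0.464% lower of all clusters tested. Chrdl1, which encodes a chordin-like BMP binder, had 10.58 to 11.29 in Fbn1mgR/mgR and 9.39 to 10.51 in wild-type, with a difference of 0.92 (limma adjusted p = 0.131). Fstl1, a follistatin-like gene, differed by 0.63 (limma adjusted p = 0.111), and Chrd, the chordin gene, by -0.31 (limma adjusted p = 0.127). In each of these 3 genes, named for their small p in limma, the genotypes did not overlap, which 8.92% of all clusters tested also met. The antagonist genes Nog and Grem1 were dim, with means of 3.52 and 3.27 in Fbn1mgR/mgR and 3.53 and 3.26 in wild-type.

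All 8 Smad and Smurf genes were tested and 0 passed in limma. Before adjustment 1 was higher and 1 lower at p under 0.05, against 7.59% higher and 6.68% lower of all clusters tested. Smurf1, a ubiquitin ligase that marks BMP Smads and receptors for degradation, had a difference of 0.43 (limma adjusted p = 0.250). Smad4, the shared partner, had -0.35 (limma adjusted p = 0.324), Smad5 -0.13 (limma adjusted p = 0.667) and the inhibitory Smad7 0.21 (limma adjusted p = 0.624). Smad1 and Smad6 had 0.09 and -0.08.

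Of 9 other target genes analysed, 8 were tested and 0 passed in limma. Before adjustment 1 was higher and 2 were lower at p under 0.05, against 7.59% higher and 6.68% lower of all clusters tested. Tmem100, an endothelial gene downstream of ACVRL1, had 6.11 to 8.87 in Fbn1mgR/mgR and 5.36 to 6.62 in wild-type. Its difference of 1.45 was the largest of the 8, but mutant arrays differed among themselves by more (SE 0.534, limma adjusted p = 0.262). Id2, the relative of Id1 and Id3, had 12.28 to 12.45 in Fbn1mgR/mgR and 11.34 to 12.28 in wild-type, with a difference of 0.47 (limma adjusted p = 0.388). Dlx5 and Msx1, homeobox genes induced by BMPs in bone, differed by -0.52 and -0.28 (limma adjusted p = 0.315 and 0.347).

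**Figure D3:**
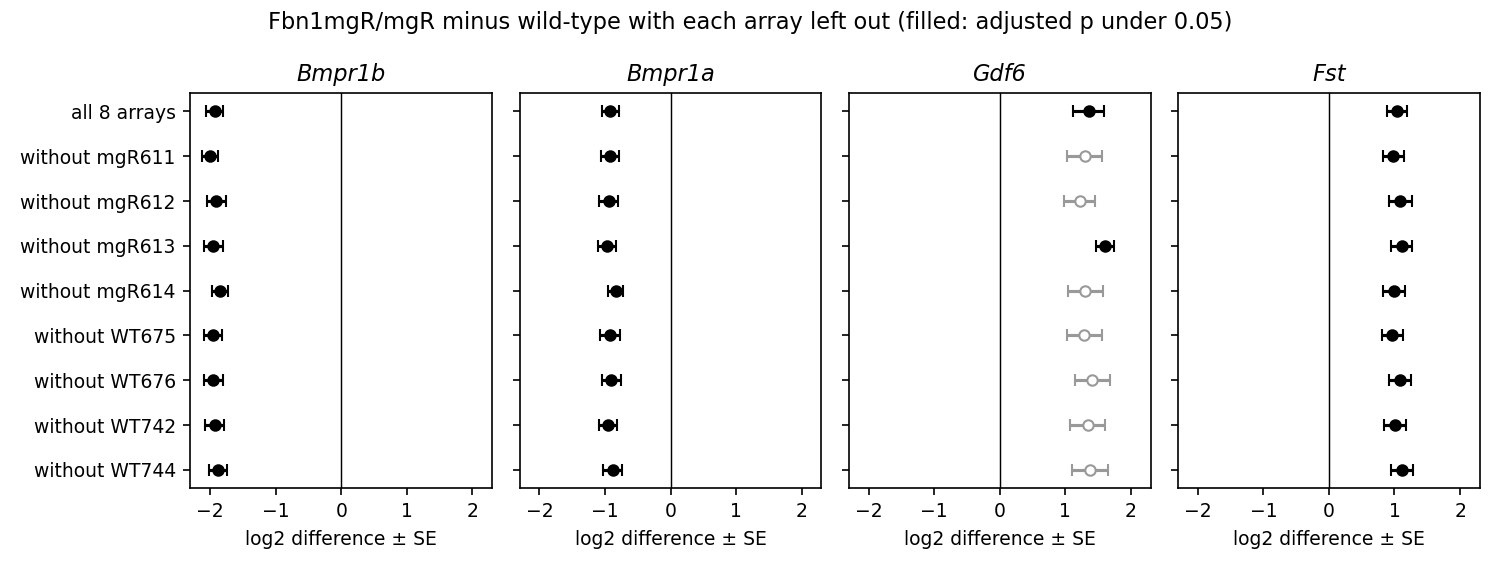
Log2 difference ± SE (horizontal axis) of the 4 pathway genes past the threshold, with all 8 arrays and with each array left out in turn (rows); filled points have a limma adjusted p under 0.05 and open points do not. Bmpr1b, Bmpr1a and Fst stay filled in every row, with Bmpr1b between -2.01 and -1.85, whereas Gdf6 is filled only with all arrays and without mgR613.

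Among 8 marker lists of cell types, the macrophage list differed most between genotypes. The mean of 14 macrophage markers was 8.79 to 9.44 in Fbn1mgR/mgR and 7.05 to 7.31 in wild-type, without overlap. Each of the 14 was higher without overlap, 12 of them past the limma threshold. Of all clusters tested, 1.40% were called higher. Mean signals of 12 contractile smooth muscle markers were 12.12 to 13.20 in Fbn1mgR/mgR and 12.89 to 13.66 in wild-type, with no member past the limma threshold and 3 lower at an unadjusted p under 0.05. For 13 endothelial markers the means were 8.71 to 9.69 in Fbn1mgR/mgR and 9.15 to 9.89 in wild-type, again with none past the limma threshold and 3 lower at an unadjusted p under 0.05. Of all clusters tested, 6.68% were lower at that unadjusted p. Striated muscle markers averaged 5.64 to 6.11 in Fbn1mgR/mgR and 6.18 to 6.85 in wild-type. Of 10 tested, Tcap, a sarcomere gene, was the only one called lower (-4.26, limma adjusted p = 0.0110), against 0.464% of all clusters tested. Before adjustment 2 of the 10 were lower at p under 0.05 in limma. Without Tcap the mean of the other 10 markers was 5.61 to 5.90 in Fbn1mgR/mgR and 5.63 to 6.32 in wild-type, and the genotypes overlapped. The means of 8 fibroblast markers (11.69 to 12.38 in Fbn1mgR/mgR, 11.82 to 12.11 in wild-type) and 9 adipocyte markers (7.17 to 9.27 in Fbn1mgR/mgR, 7.15 to 9.45 in wild-type) overlapped, as did the contractile, endothelial, brown fat and mesothelial means. In bulk RNA, fewer cells of a type and less RNA per cell cannot be told apart, and the part of macrophages or smooth muscle in the receptor differences was not tested.

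With the endothelial marker mean as a covariate, Bmpr1b differed by -1.96 (limma adjusted p = 0.00566) and Bmpr1a by -0.85 (limma adjusted p = 0.0475). With the brown fat marker mean as a covariate the differences were -1.94 (limma adjusted p = 0.00152) and -0.92 (limma adjusted p = 0.0176). Both receptor genes therefore stayed past the threshold in these fits. The array mgR613 was highest of the mutant arrays in the endothelial mean and in 6 of the 10 members (Bmpr1a, Bmpr2, Acvrl1, Bmp2, Id1 and Id3). It was not highest in Bmpr1b, Acvr1, Bmp4 or Bmp6. The array mgR614 was lowest of the mutant arrays in all members but Id1 and Id3. It was not lowest in the endothelial mean (8.75, against 8.71 on mgR611). How many of all clusters share these patterns was not counted, and the part of endothelial cells in them was not tested.

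**Figure D4:**
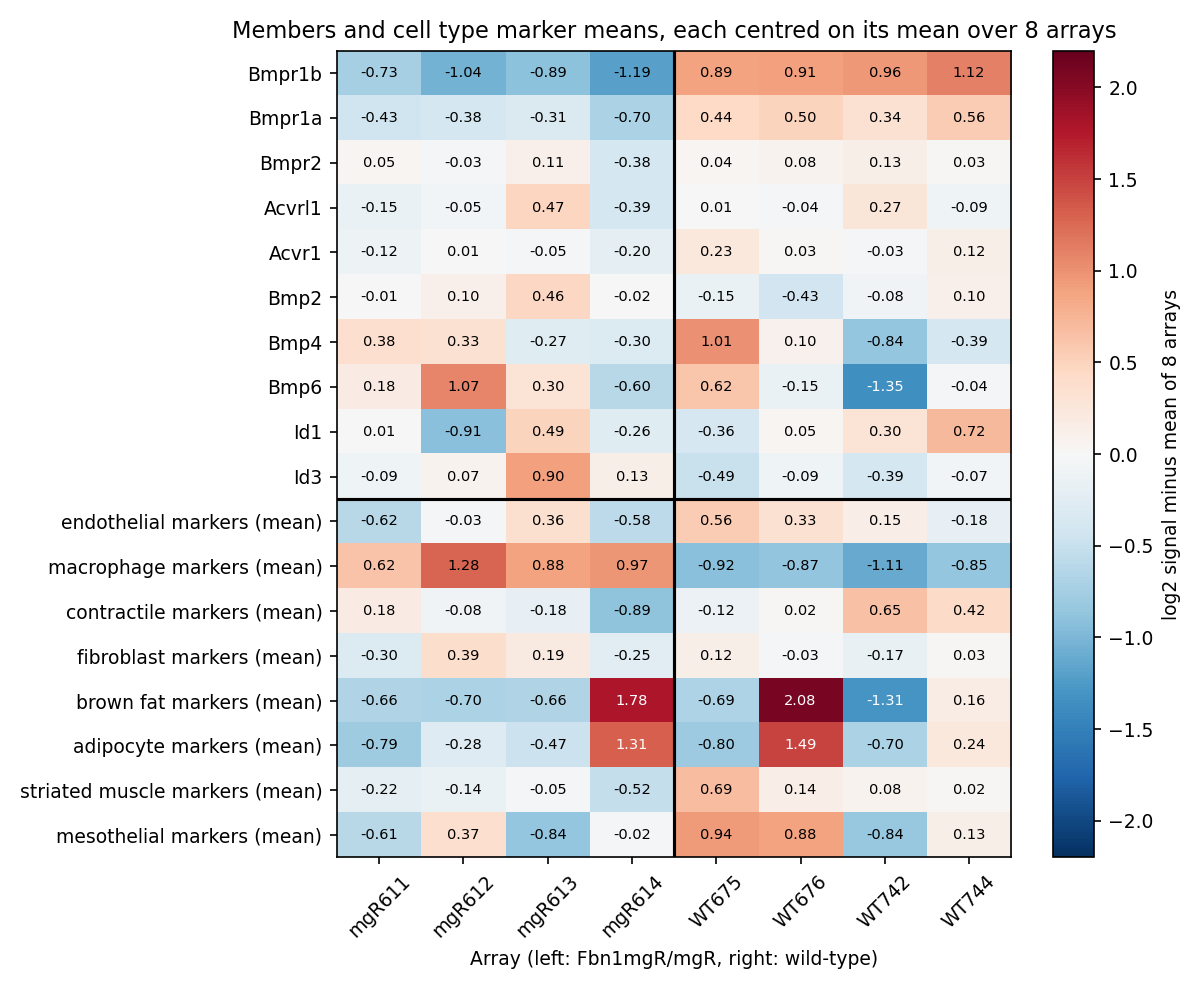
Log2 signal of the 10 members (upper rows) and the mean of 8 cell type marker lists (lower rows) on each array, each row centred on its mean over the 8 arrays; red is above and blue below that mean, with Fbn1mgR/mgR arrays left of the line. Only Bmpr1b and Bmpr1a split by genotype among the members, brown fat markers peak on mgR614 (1.78) and WT676 (2.08), and Bmp6 is lowest on WT742 (-1.35).

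The genes whose array pattern was most like that of Bmpr1b, by root mean square difference of mean-centred log2 signals over the 8 arrays among 12993 named genes' clusters tested, were Angptl7 (0.273), Olfr330 (0.282) and Wif1 (0.301). All of them fell: Angptl7, an angiopoietin-like gene, with a difference of -2.02 (limma adjusted p = 0.00497), Olfr330, annotated as an olfactory receptor, with -1.95 (limma adjusted p = 0.00827), and Wif1, a secreted Wnt inhibitor gene, with -2.47 (limma adjusted p = 0.000791). For Bmpr1a they were Rhobtb1 (0.112), Efhc2 (0.117) and Crebrf (0.126), with differences of -0.99, -0.94 and -0.72. Crebrf did not pass the threshold (limma adjusted p = 0.0508). The distance includes the genotype difference itself, so falls of a similar size follow from the search and are not separate results.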

How the data were processed

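Total RNA of snap-frozen aorta was measured on 8 Clariom D mouse arrays (Affymetrix). The authors deposited log2 signals, 1 for each transcript cluster and array. Per the submitters' processing notes the Transcriptome Analysis Console was used; its version and its steps of background correction and normalization were not given in the sources used here. No depth applies, and the number of arrays limits the precision. Genotypes were taken from the labels.

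Of 65956 clusters, 30604 carried 1 symbol, 2146 several and 33206 none; gene IDs of 22818 matched RefSeq (GRCm38.p6). Differences were tested by the linear models of limma 3.58.1 (R 4.3.3), with moderated variances that follow mean signal, on 32957 clusters, two-sided, with Benjamini-Hochberg adjustment. On simulated data with 32978 clusters tested, 58% of the 100 clusters given a 1-unit log2 change were called, and 78% of the 100 given 2 units. No call had the wrong sign, and 6 calls fell on unchanged clusters. Tables were handled in pandas 2.3.3 (Python 3.11.15) and drawn in matplotlib 3.10.9. The members and lists were chosen with earlier results of these data known. Named genes are the members, up to 4 genes of each other pathway list with the smallest p plus any called, the brightest markers, and the 3 genes most alike to each called member; Eng, Nog, Grem1, Smad1, Smad6 and Tcap were named after their values were seen. Alternatives changed the eBayes settings, weights, filter, normalization, covariates, gene summary, threshold and arrays. The protein comparison was not made.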

Additional observations from a re-analysis of the deposited data

How the results depend on the processing

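The 2 members called lower were called under all but 1 of 22 alternatives, and 0 members were called higher under any (1 was higher at an unadjusted p under 0.05 in limma with all arrays). The exception, chosen after seeing the data, left out both mgR614 and WT676; it called 1 member lower (Bmpr1b), 0 other pathway genes higher, and 115 clusters higher and 53 lower, with the cause not tested beyond the fewer arrays. All arrays gave 460 clusters higher and 153 lower. The endothelial covariate gave 276 and 64, and 1 other pathway gene higher (Fst). A threshold of 0.1, read from the same fit and so unable to lose a call, gave 765 and 362. No filter on dim clusters gave 99 lower, since more clusters were adjusted for. With each array left out, 209 to 441 clusters were higher and 56 to 121 lower, 2 members were lower and 0 higher, and 1 to 2 other pathway genes were higher and 0 lower.

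Among the members and the pathway genes named by rule, signs turned in 2 genes, neither called: Acvrl1 (0.15 with the endothelial covariate, 0.0267 without mgR614 and WT676, -0.23 to 0.0525 with each array left out) and Bmp4 (-0.20 to 0.41 with each array left out). Eng, Smad1 and Smad6 were not rerun. Averaging clusters of a gene changed nothing here, since every listed gene had 1. Moderating variances over all clusters, added after seeing the data, kept the calls of Bmpr1b, Bmpr1a, Gdf6 and Fst. The labels give no batch or pairing and the genotypes share 0 replicate numbers, so no paired analysis was made. A batch aligned with genotype could not be told apart from it. Values near the dim level, such as those of Bmp2, carry no test.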
